A study of Mus musculus with 4 samples.

Results

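Glutathione transferases couple the tripeptide glutathione to reactive, mostly electrophilic compounds, which makes those compounds soluble and ready for export. The soluble enzymes fall into classes named by Greek letters, and a separate membrane-bound family includes the microsomal enzyme Mgst1. Many of their genes are known targets of the stress-activated transcription factor NRF2 (gene Nfe2l2), which binds antioxidant response elements, and in skin the enzymes are known for handling lipid peroxidation products and foreign chemicals. The 10 genes described here are Gsta2, Gsta3 and Gsta4 (alpha class), Gstm1, Gstm2 and Gstm5 (mu class), Gstp1 (pi class), Gstt1 (theta class), Gsto1 (omega class) and Mgst1. They were selected by gene name from 30342 genes or targets on the array and are read by 16 of its 39429 probes. The selection was made with measured values of these arrays in view, so what follows is a description, with no test.

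The cells were primary keratinocytes from the skin of newborn C57BL/6 mice that were Pla2g2f -/- or Pla2g2f +/+. Pla2g2f encodes a secreted phospholipase A2. Each genotype was cultured for 48 h with 1 mM CaCl2, the standard switch to differentiation, or without it as control, and total RNA of each of the 4 combinations was hybridised to 1 single-colour array. RNA was pooled from the keratinocytes of 6 mice per genotype, so genotype cannot be separated from the preparation of the cells and no difference has a replicate check. Of the 10 keratinocyte markers, 9 or 10 were well above background on each array. Between 67.0% and 68.6% of all probes were well above background, and all 4 arrays shared a slide and a scan. The probe for Pla2g2f read 0.49 log2 units lower in -/- than in +/+ cells with calcium and 0.43 lower without it. The sources used here do not say which part of the gene was deleted, so this probe does not check the genotype.

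Levels below are log2 signals relative to the 75th percentile of the same array. Probes differ in brightness, so levels are compared between arrays and never between genes. A gene with several probes was read from its brightest one. The error given with a difference is the scanner software's error of the 2 signals. It covers a single hybridisation and neither the spread between cultures nor that between mice. For the brightest member probes it was 0.144 log2 units per signal on every array, so it is close to a constant and no measured spread. The median SD over repeat spots was smaller, at 0.056 to 0.060. A difference of 1 log2 unit, or 2-fold, was used for counting.

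To show which sequences lie in front of the members, RefSeq promoter windows (build GRCm38.p6) were searched on both strands over the 250 bases before each start site for TGACNNNGC, the core of the antioxidant response element, and for TGANTCA, the motif of AP-1 factors. The 2 motifs can overlap in principle and did not do so in any member. The windows covered 11 start sites of 9 members. Gsta4 was not in the table. TGACNNNGC was found in front of 3 members, Gsta3, Mgst1 and Gstm5, and in 10.2% of 32851 windows of that length. TGANTCA was found in front of Gstm5 and Gstp1, and in 6.75% of all windows. The first 3 sequences below carry TGACNNNGC, in capitals and in the last of them on the reverse strand. The fourth is shown because its gene differed between genotypes as well and has neither motif in this window.
Gsta3, chr1:21240335-21240584, plus strand: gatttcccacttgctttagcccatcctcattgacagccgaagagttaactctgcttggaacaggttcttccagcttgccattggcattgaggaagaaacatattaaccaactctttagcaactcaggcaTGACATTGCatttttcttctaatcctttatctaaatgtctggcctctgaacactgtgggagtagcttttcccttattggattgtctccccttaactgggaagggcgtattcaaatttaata
Gstm5, chr3:107895604-107895853, plus strand: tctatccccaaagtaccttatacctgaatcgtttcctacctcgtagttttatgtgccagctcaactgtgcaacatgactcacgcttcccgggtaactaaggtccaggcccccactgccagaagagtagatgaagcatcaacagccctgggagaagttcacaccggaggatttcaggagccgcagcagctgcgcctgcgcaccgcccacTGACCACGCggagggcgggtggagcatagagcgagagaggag
Mgst1, first of 2 start sites, chr6:138140277-138140526, plus strand: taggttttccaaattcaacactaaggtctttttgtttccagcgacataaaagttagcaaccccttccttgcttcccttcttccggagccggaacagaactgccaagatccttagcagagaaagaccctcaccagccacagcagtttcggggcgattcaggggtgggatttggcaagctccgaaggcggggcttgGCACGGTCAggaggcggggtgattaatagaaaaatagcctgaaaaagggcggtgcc
Gstm2, chr3:107986421-107986670, minus strand: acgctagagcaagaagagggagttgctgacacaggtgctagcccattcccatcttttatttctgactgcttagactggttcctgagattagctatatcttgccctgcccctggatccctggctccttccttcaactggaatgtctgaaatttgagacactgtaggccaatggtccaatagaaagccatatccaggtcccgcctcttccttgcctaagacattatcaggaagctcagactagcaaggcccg
The match began 121 bases before the start of Gsta3, 42 before that of Gstm5 and 56 before that of Mgst1. Gsta3 and Mgst1 were among the members that differed between genotypes below, whereas Gstm5 was not. TGACNNNGC was absent in front of Gsta2, Gstm1, Gstm2 and Gstt1, which differed as well. It was also absent in front of Gsto1 and Gstp1, which stayed under 2-fold. A match describes the letters of the window and shows no binding.

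Most members were higher in -/- than in +/+ cells. Without calcium, 5 of the 9 members that could be compared were at least 2-fold higher in -/- cells and 0 were at least 2-fold lower. They were Gsta2, Gsta3, Gstm1, Gstm2 and Mgst1. Of all 21346 genes compared, 4.65% passed 2-fold upward and 4.32% downward. With calcium, Gstt1 joined them and 6 of 9 members were at least 2-fold higher, with 0 lower, where 6.56% of 21565 genes were higher and 3.05% lower. The median difference of the members was 1.60 log2 units with calcium, where that of all genes was -0.16, and 1.25 without calcium, where that of all genes was -0.18. Because the members were selected on such values, these counts describe them and are no evidence about the family. The balance of all genes depended on the scaling. Without calcium there were 992 genes higher and 922 lower by the 75th percentile, 1162 and 400 by quantile scaling, 655 and 188 after normexp background correction, and 1668 and 285 when arrays were scaled to keratinocyte markers. With calcium the split was 1414 and 658 by the 75th percentile and 2572 and 256 by keratinocyte markers.

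**Figure D1:**
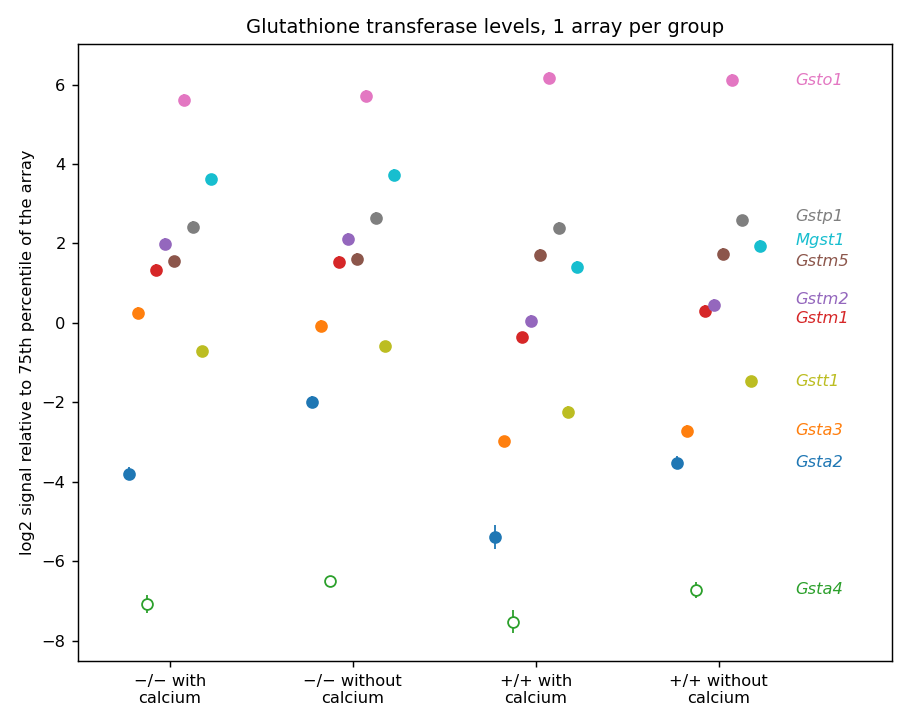
Level of each member on the 4 arrays (log2 signal relative to the array's 75th percentile, 1 point per array, read from the brightest probe). Bars are the scanner software's error, mostly smaller than the points, and open points are not well above background. Gsta2, Gsta3, Gstm1, Gstm2, Gstt1 and Mgst1 lie higher in -/- than in +/+ cells in each medium, and Gstp1 barely so. Gsta4 is open throughout.

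Gsta3, an alpha-class enzyme known in mouse for conjugating the epoxide of aflatoxin, had the widest genotype difference among the members. Its level was 0.25 in -/- cells with calcium and -0.08 in -/- cells without calcium, against -2.98 in +/+ cells with calcium and -2.71 in +/+ cells without. The 2 arrays of a genotype came from a single pool in different media and are no replicates of each other. The difference was 3.24 ± 0.21 log2 units (9.43-fold) with calcium and 2.63 ± 0.21 (6.20-fold) without. These placed Gsta3 113th from the top of 21565 genes with calcium and 99th of 21346 without. Its probe lies at chr1:21255189-21255248 (mm9), and a further probe at chr1:21255043-21255102 read 2.89 and 2.40 log2 units for the same comparisons.

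Mgst1, the membrane-bound microsomal enzyme, also acts as a peroxidase. Its level was 3.61 and 3.73 in -/- cells with and without calcium, against 1.40 and 1.93 in +/+ cells with and without calcium. It was 4.62-fold higher in -/- cells with calcium (2.21 ± 0.20 log2 units) and 3.47-fold higher without calcium (1.79 ± 0.20). Its other probe, also on chromosome 6, gave 2.28 and 1.89 log2 units, so the probes of Mgst1 differed by less than their error.

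Gstm2, a mu-class enzyme, read 1.99 and 2.11 in -/- cells with and without calcium, against 0.05 and 0.46 in +/+ cells with and without calcium. The genotype difference was 1.94 ± 0.20 log2 units (3.83-fold) with calcium and 1.65 ± 0.20 (3.14-fold) without. Its 3 probes on chromosome 3 ranged over 1.87 to 2.01 log2 units with calcium and 1.58 to 1.65 without. 2 of the 3 overlap by a few bases and are not independent readings.

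Gstm1, its neighbour on chromosome 3, read 1.33 and 1.54 in -/- cells with and without calcium, against -0.36 and 0.30 in +/+ cells with and without calcium. It was 3.22-fold higher in -/- cells with calcium (1.69 ± 0.20 log2 units) and 2.38-fold higher without (1.25 ± 0.20). The file places this brighter probe at chr5:117082490-117082549, not on the chromosome of the gene. The dimmer probe, at chr3:107815595-107815654, gave 1.67 and 1.27 log2 units, so both probes of Gstm1 gave the same direction and nearly the same size.

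Gstt1, a theta-class enzyme known for metabolising small halogenated compounds, read -0.71 and -0.59 in -/- cells with and without calcium, against -2.24 and -1.47 in +/+ cells with and without calcium. It was 2.88-fold higher in -/- cells with calcium (1.53 ± 0.20 log2 units). Without calcium the difference was 1.84-fold (0.88 ± 0.20), just under the threshold for counting.

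Gsta2, an alpha-class enzyme with peroxidase activity, differed in both directions of the design. Its signal was low, 238 and 726 intensity units in -/- cells with and without calcium, against 65.2 and 230 in +/+ cells with and without calcium. On the log2 scale these were -3.79 and -1.99 in -/- cells and -5.39 and -3.52 in +/+ cells. The -/- array with calcium and the +/+ array without it lay close together, between the other two. The genotype difference was 1.60 ± 0.34 log2 units (3.03-fold) with calcium and 1.53 ± 0.22 (2.89-fold) without. After normexp correction, which shrinks differences of dim probes, it was 0.73 with calcium, below 2-fold, and 1.12 without. The probe, at chr9:78178856-78178915 (mm9), shares a run of 30 bases with a probe for the predicted gene Gm10639 and runs of 16 with another Gm10639 probe and with a probe for Gm3776, so RNA from these relatives may be read as Gsta2. These genes were looked at after their values were seen. The Gm10639 probe with the longer run read 0.84 log2 units higher in -/- cells with calcium and 1.52 without, and the Gm3776 probe 1.06 and 1.38. The other Gm10639 probe was above background on 1 array, that of -/- cells without calcium.

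The remaining measured members differed little between genotypes. Gstp1, the pi-class enzyme, which is known to bind and inhibit the kinase JNK, read 2.43 and 2.64 in -/- cells with and without calcium, against 2.39 and 2.58 in +/+ cells with and without calcium. Its genotype difference was 0.04 ± 0.20 log2 units with calcium and 0.06 ± 0.20 without. The other Gstp1 probe gave 0.18 ± 0.20 and 0.11 ± 0.20. Gstm5, of the mu class, read 1.55 and 1.62 in -/- cells, against 1.72 and 1.73 in +/+ cells, with differences of -0.17 ± 0.20 with calcium and -0.12 ± 0.20 without. All of these lay within the scanner's error. Under keratinocyte-marker scaling Gstm5 took the other sign, 0.24 in both, and Gstp1 stood at 0.45 with calcium and 0.41 without.

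Gsto1, the omega-class enzyme, known for reducing dehydroascorbate, was the 1 member lower in -/- cells by more than the scanner's error. It read 5.61 and 5.72 in -/- cells with and without calcium, against 6.17 and 6.11 in +/+ cells with and without calcium. The difference was -0.56 ± 0.20 log2 units with calcium (1.47-fold lower) and -0.39 ± 0.20 without (1.31-fold lower). It was -0.25 with calcium under quantile scaling, and -0.15 with and -0.04 without calcium under keratinocyte-marker scaling. The all-gene median shifted as well, to 0.25 with calcium and 0.17 without by keratinocyte markers, against -0.16 and -0.18 by the 75th percentile.

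Gsta4, the alpha-class enzyme known for conjugating the lipid peroxidation product hydroxynonenal, was not well above background on any array and was compared in no contrast. It has 1 probe printed in 10 spots, of which 2 and 3 passed in -/- cells with and without calcium, against 0 and 1 in +/+ cells with and without calcium. Its mean signals were 24.6 and 31.8 intensity units in -/- cells and 14.9 and 25.1 in +/+ cells. This probe joins 2 exons at chr9:78046172-78047344 (mm9) and is printed with the brightest Gstp1 probe, which also crosses a junction, at chr19:4035908-4036723. These show the pieces of message behind the faint reading and behind a reading that differed little between genotypes.
Gsta4 probe: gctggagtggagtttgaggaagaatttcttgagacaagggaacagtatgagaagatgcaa
Gstp1 probe: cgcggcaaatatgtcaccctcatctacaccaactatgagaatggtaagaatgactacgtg

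**Figure D2:**
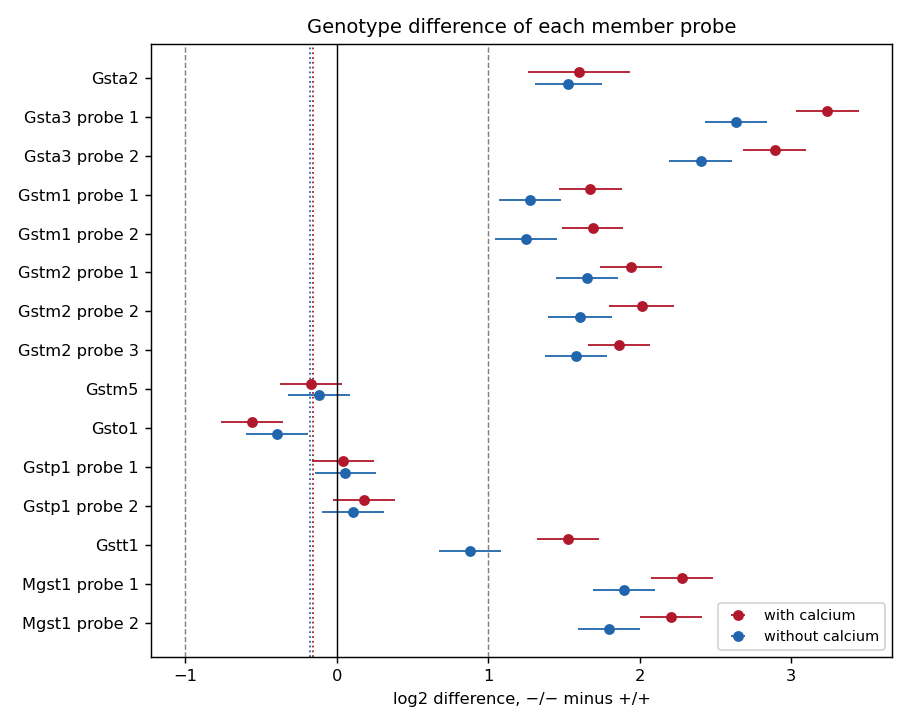
Genotype difference of each member probe (log2, -/- minus +/+) with calcium (red) and without (blue). Bars are the scanner software's error, dashed lines mark 2-fold and dotted lines the median of all genes. Gsta3 lies furthest right at 3.24 with calcium, while Gstm5, Gsto1 and Gstp1 lie near 0 or below it.

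Fewer members passed 2-fold in the response to calcium than between genotypes. In -/- cells 1 of 9 members, Gsta2, was at least 2-fold lower with calcium and 0 were at least 2-fold higher. Of all 21428 genes, 0.602% were at least 2-fold lower and 2.99% higher. In +/+ cells the counts were again 1 and 0, with Gsta2 the member, where 1.01% of 21130 genes were lower and 2.47% higher. The median of the members was -0.12 log2 units in -/- cells, with -0.03 for all genes, and -0.41 in +/+ cells, with -0.07 for all genes.

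Gsta2 was 3.48-fold lower with calcium in -/- cells (-1.80 ± 0.22 log2 units), the 12th lowest of all genes, and 3.65-fold lower in +/+ cells (-1.87 ± 0.34), the 25th lowest. Normexp correction gave -1.42 and -1.03. The Gm10639 probe that shares 30 bases with it read -1.95 in -/- cells and -1.27 in +/+ cells, and the Gm3776 probe -1.70 and -1.38.

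In +/+ cells several members were lower with calcium by less than 2-fold. Gstt1 differed by -0.77 ± 0.20 log2 units, Gstm1 by -0.66 ± 0.20, Mgst1 by -0.53 ± 0.20 and Gstm2 by -0.41 ± 0.20. In -/- cells the same members lay closer to 0, at -0.12, -0.22, -0.12 and -0.12 in that order, each within or near the scanner's error. Gsta3 was 0.33 ± 0.20 higher with calcium in -/- cells and 0.27 ± 0.21 lower in +/+ cells. Gstp1 was slightly lower with calcium in both, by -0.21 in -/- and -0.19 in +/+ cells. Its other probe gave -0.27 ± 0.20 in -/- and -0.34 ± 0.20 in +/+ cells, both beyond the scanner's error. Gsto1 and Gstm5 stayed within 0.11 of 0.

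The difference of the calcium responses, -/- minus +/+, was 0.65 ± 0.29 log2 units for Gstt1, 0.60 ± 0.29 for Gsta3, 0.44 ± 0.29 for Gstm1, 0.41 ± 0.29 for Mgst1 and 0.29 ± 0.29 for Gstm2. It was 0.07 ± 0.40 for Gsta2, -0.02 for Gstp1, -0.05 for Gstm5 and -0.16 for Gsto1. None of the 9 members reached 2-fold in either direction, where 1.91% of 19227 genes did so upward and 0.629% downward. By quantile scaling these upward and downward counts over all genes were 187 and 183, against 367 and 121 by the 75th percentile. The members' median was 0.29, with 0.02 for all genes.

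**Figure D3:**
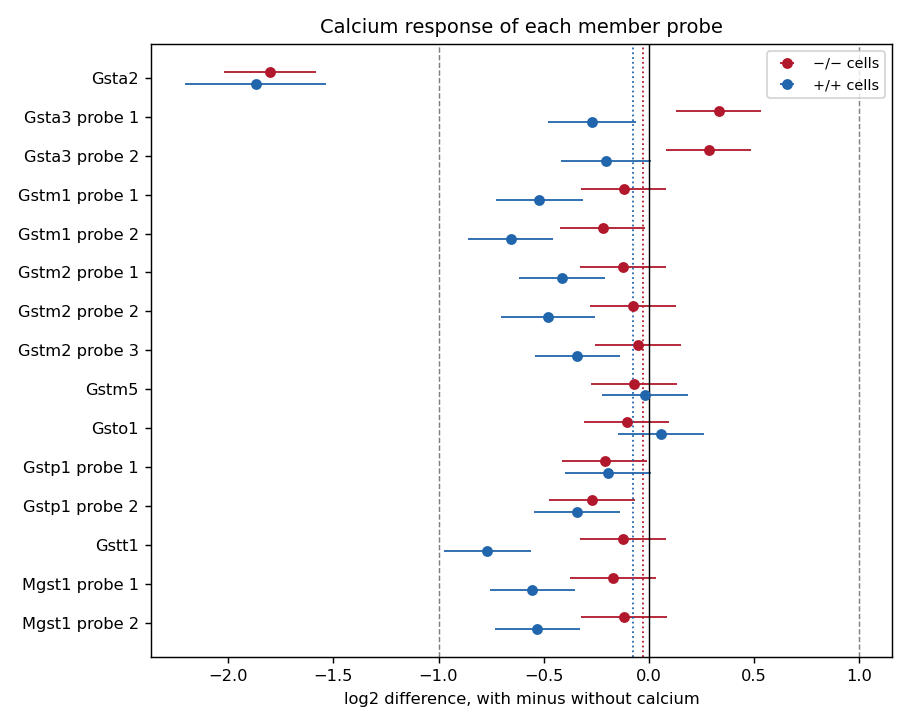
Calcium response of each member probe (log2, with minus without calcium) in -/- cells (red) and +/+ cells (blue). Bars are the scanner software's error, dashed lines mark 2-fold and dotted lines the median of all genes. Gsta2 alone lies beyond 2-fold, near -1.8 in both genotypes, and Gsta3 lies on opposite sides of 0.

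The patterns of some members over the 4 arrays resembled each other. Likeness was taken as the Euclidean distance between the 4 levels after each gene's mean was removed. The search covered genes above background on every array, 19227 before clone, accession and predicted-gene names were left out. Ranks below count only the genes kept. Gstm2 and Mgst1 were 0.22 log2 units apart, and Mgst1 was the 41st closest gene to Gstm2. Gstm1 and Gstt1 were 0.29 apart, with Gstt1 the 82nd closest to Gstm1, and Gstm1 and Gstm2 were 0.37 apart, with Gstm2 the 180th closest. Gstm5 was 0.25 from Gstp1 and 0.34 from Gsto1, but these ranked only 4431st and 6589th from Gstm5. Gsta2, which had the widest range of any member at 3.40 log2 units, was 1.41 from its closest member, Gstm1. Gm10639 and Gm3776, whose probes share bases with the Gsta2 probe, were left out here because of their names. Of the genes kept, the 5 closest to Gsta2 were Lgr5, Ptgds, Ogn, Kcna1 and Ip6k3. Their distances were 0.42, 0.46, 0.94, 0.94 and 0.95. Lgr5 is a receptor for R-spondins and a stem cell marker of the hair follicle, and Ptgds is a prostaglandin D synthase. With 4 arrays these distances describe the libraries only.

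The mu-class genes sit side by side, and their 7 genes on the array span 146 kb of chromosome 3, between bases 107701101 and 107846847 (mm9). In chromosome order they read, as -/- minus +/+ with calcium, -0.17 for Gstm5, -0.02 for Gstm7, -0.07 for Gstm6, 1.74 for Gstm3, 1.94 for Gstm2, 1.69 for Gstm1 and -0.04 for Gstm4. Without calcium the order of values was -0.12, -0.22, -0.24, 1.39, 1.65, 1.25 and -0.42. The 3 genes past 2-fold were neighbours, with genes under 2-fold on either side. This arrangement was noticed after the values were seen and depends on the probe at its edge. The dimmer of 2 Gstm4 probes gave 1.32 with calcium and 0.73 without, and Gstm7 lay close to the lowest measurable level. No member probe shares 16 or more bases with a probe of another mu-class gene. Probes were compared only with probes, so whether a probe also reads the message of a neighbour was not tested.

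**Figure D4:**
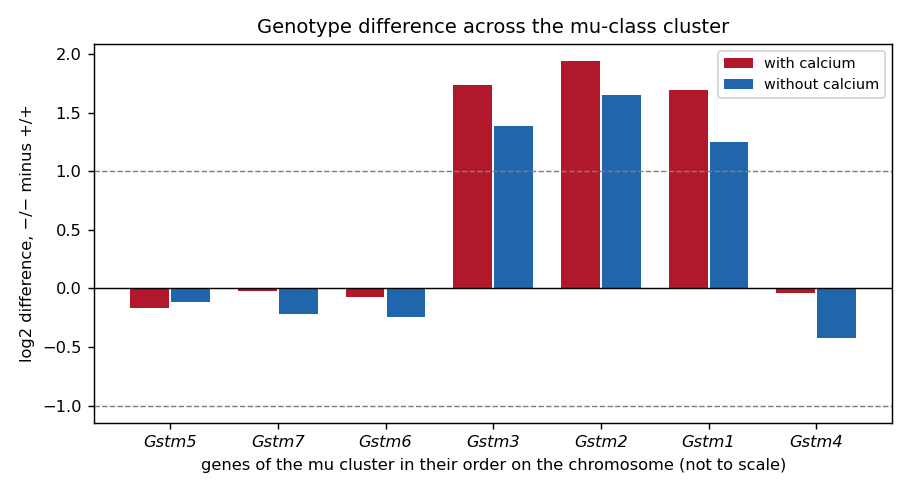
Genotype difference (log2, -/- minus +/+) of the 7 mu-class genes in chromosome order, with calcium (red) and without (blue), each read from its brightest probe. Dashed lines mark 2-fold. Gstm3, Gstm2 and Gstm1 lie above 1 in both, and the others lie between -0.42 and 0.

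Other transferases differed between genotypes in both directions. Their list holds the remaining soluble enzymes, the transferase-like Gstcd, and the membrane-bound relatives of Mgst1, among them Ptges and Alox5ap, which has no transferase activity of its own. Of 17 compared, 5 passed 2-fold upward and 1 downward in -/- cells, both with and without calcium. Their median difference was 0.03 with calcium and -0.01 without. Over all genes, 6.56% were higher and 3.05% lower with calcium, and 4.65% and 4.32% without. These shares also stand beside the lists and markers below. Hpgds, which makes prostaglandin D2 in blood-derived cells, was 2.48 log2 units higher with calcium and 2.09 without. Alox5ap, the partner of 5-lipoxygenase in leukotriene synthesis, was 3.46 higher with calcium and 2.32 without. Leaving it out, 4 of 16 passed 2-fold upward and 1 downward in each medium. Mgst2 was lower, by -1.22 and -1.05. Among closest relatives, Gstp2 differed by 0.03 and 0.04. In the response to calcium, 0 of these 17 reached 2-fold in either genotype, where over all genes 2.99% were higher and 0.602% lower in -/- cells. In +/+ cells the shares were 2.47% and 1.01%.

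The enzymes that supply glutathione stayed under 2-fold between genotypes. Of 16 genes of glutathione synthesis and recycling, 0 reached 2-fold between genotypes with or without calcium. Their medians were -0.20 with calcium and -0.11 without. Over all genes the shares past 2-fold were low as well, at 6.56% upward and 3.05% downward with calcium. Without calcium they were 4.65% and 4.32%. Gclc, the catalytic subunit of the rate-limiting ligase, differed between genotypes by 0.12 with calcium and -0.10 without. With calcium, Glrx, a glutaredoxin, was 1.12 log2 units higher in -/- and 1.38 higher in +/+ cells, and Gclc was lower by -0.69 in -/- and -0.91 in +/+ cells.

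Of 6 glutathione peroxidases compared, 1 was at least 2-fold higher in -/- cells. This was Gpx3, the secreted plasma form, at 3.39 log2 units with calcium and 3.09 without. Of 13 genes for export of conjugates and their breakdown to mercapturates, 6 were at least 2-fold higher in -/- cells with calcium and 5 without, and 0 were lower. Their medians were 0.97 and 0.68. Ggt5, a gamma-glutamyl transferase, was 3.74 higher with calcium and 1.98 without, and the exporter Abcc3 was 2.28 and 1.47 higher. Ggt6, a relative of Ggt5, was 3.10 log2 units higher with calcium in -/- cells and 1.82 in +/+ cells.

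Of 18 other targets of NRF2, 0 were at least 2-fold higher in -/- cells in either medium. With calcium 1 was lower, Txnrd1, a thioredoxin reductase, at -1.27, which was -0.86 without calcium. Their median was 0.03 with calcium and -0.07 without. Of 10 regulators compared, 0 reached 2-fold between genotypes. Counts of 0 in lists of these sizes are near the all-gene shares of 6.56% higher with calcium and 4.65% without. Nfe2l2, which encodes NRF2 itself, differed by -0.22 with calcium and -0.32 without. Ahr, the aryl hydrocarbon receptor, was 2.14-fold up with calcium in -/- cells, against 1.53-fold in +/+ cells.

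**Figure D5:**
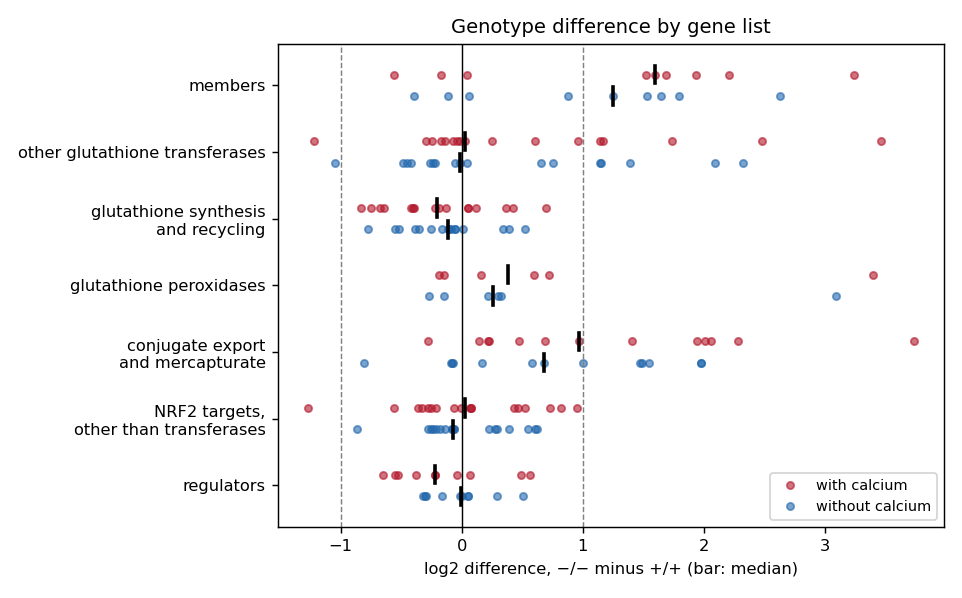
Genotype difference (log2, -/- minus +/+) of the members and of 6 related gene lists, with calcium (red) and without (blue). Each point is a gene, black bars are medians and dashed lines mark 2-fold. The members' medians lie at 1.60 and 1.25, and those of glutathione synthesis and recycling at -0.20 and -0.11.

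Markers of some other cell types differed with genotype beside the members, and those of others did not. The summed level of 8 adipocyte markers, in multiples of the array's 75th percentile, was 103 and 125 in -/- cells with and without calcium, against 25.7 and 38.1 in +/+ cells with and without calcium. All 7 that were measured were at least 2-fold higher in -/- cells in both media, and Lep was not above background anywhere. Mast cell markers summed to 11.3 and 11.3 in -/- cells, against 1.67 and 1.5 in +/+ cells, with 7 of 7 measured at least 2-fold higher and Ms4a2 not above background. Macrophage markers summed to 32.9 and 19.8 in -/- cells, against 3.24 and 4.01 in +/+ cells, with 8 of 8 at least 2-fold higher. The 7 fibroblast markers read on all 4 arrays summed to 204 and 191 in -/- cells, against 116 and 131 in +/+ cells. Col1a1 is left out of these sums because its spot on the -/- array without calcium was an outlier. Over the whole fibroblast list, 5 of 8 were at least 2-fold higher with calcium and 1 of 7 without. Keratinocyte markers summed to 278 and 323 in -/- cells, against 391 and 397 in +/+ cells, with 0 past 2-fold. All 10 compared with calcium and all 9 compared without were lower in -/- cells. Their medians were -0.37 and -0.26, where those of all genes were -0.16 and -0.18. Of the skeletal muscle markers compared, 2 of 3 passed 2-fold upward with calcium and 3 of 4 without. The remaining 1, Mylpf, was lower in -/- cells, by -0.69 with calcium and -0.97 without. Muscle markers summed to 0.946 and 0.832 in -/- cells, against 0.466 and 0.286 in +/+ cells, and Ckm was not above background. Sebaceous markers summed to 0.538 and 0.714 in -/- cells, against 0.341 and 0.395 in +/+ cells, and Awat1 was not above background. Of 5 compared, 1 passed 2-fold upward with calcium and 2 without, but 3 were lower in -/- cells in each medium. The median of these 5 was -0.16 in each, where that of all genes was -0.16 with calcium and -0.18 without. Hair follicle markers summed to 8.17 and 7.75 in -/- cells, against 9.8 and 8.03 in +/+ cells, with 1 of 6 past 2-fold upward in each medium. Melanocyte markers summed to 31.0 and 39.9 in -/- cells, against 44.3 and 39.6 in +/+ cells, and 0 of 5 passed 2-fold. Endothelial markers summed to 1.73 and 1.77 in -/- cells, against 2.86 and 2.52 in +/+ cells, with all 4 lower in -/- cells and 1 of them past 2-fold, without calcium. The part of other cell types in the members' differences was not tested. In pooled RNA, more cells of a type and more RNA per cell cannot be told apart.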

How the data were processed

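RNA of 4 groups was measured on 1 single-colour Agilent array each. The authors' deposited scanner files hold intensity values from Agilent Feature Extraction 11.5.1.1, background-subtracted and detrended within each array and not scaled between arrays, per the file headers, together with other flags for each spot. The deposited value table holds a ratio, the same signal divided by a constant of its array; the quotient varied by at most 2.3e-07. Probe positions are mm9.

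Outlier spots (105 to 116 per array) were left out and none was saturated. Each log2 signal was set against the 75th percentile of its array (2637.9 to 3299.5 intensity units). Of 39429 probes 27508 were named through their accession in RefSeq, and the others kept the file's name. The median SD over repeat spots of a probe was 0.056 to 0.060 log2 units. A gene was compared where well above background on 1 of the 2 arrays or both. A difference against a dim array is a lower bound. No member had one. Ggt1, the macrophage marker Cd163 and the sebaceous marker Elovl3 had one in each genotype comparison. The muscle marker Myh4 had one for genotype without calcium. For calcium, Krt1 had one in both genotypes and Myh4 in -/- cells. With 1 array per group no test was run, and precision is limited by that number.

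All 10 members are named. From each list up to 2 genes with the highest and 2 with the lowest difference in a comparison could be named. So could the 5 genes closest to the member with the widest range, after clone and predicted-gene names were left out. Other transferases of the members' clusters, Gclc, Nfe2l2, Gm10639 and Gm3776 were named after their values were seen. The members and lists were chosen with earlier results of these data known. Steps were tested on simulated data. Alternatives were normexp correction (offset 50), quantile scaling, the median of detected probes or keratinocyte markers as the base of scaling, averaging the probes of a gene, the value table, other filters and 1.5-fold. Scripts ran in R 4.3.3 with limma 3.58.1 and in Python 3.11.15 with pandas 2.3.3 and numpy 2.4.6.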

Additional observations from a re-analysis of the deposited data

Results flagged for a closer look

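Gsta3 moved in opposite directions with calcium in the 2 genotypes, which is why it is listed here. It was 0.33 log2 units higher with calcium in -/- cells and 0.27 lower in +/+ cells, a difference of responses of 0.60 ± 0.29 (scanner error). Its other probe gave 0.28 and -0.20, and a difference of 0.49. The difference was not tested, since each group is 1 array, and it lay between 0.55 and 0.66 under the 6 alternative scalings and readings. It ranked 1298th from the top of 19227 genes, and that of Gstt1 ranked higher, at 1111th. The lower level with calcium in +/+ cells, -0.27 ± 0.21, was little beyond the scanner's error. The other probe, at -0.20 ± 0.21, lay within it, and the median of all genes was -0.07.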

How the results depend on the processing

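At 1.5-fold in place of 2-fold, 3 members were lower with calcium in +/+ cells and 2 had a higher response in -/- than in +/+ cells. When arrays were scaled to keratinocyte markers, the members' median genotype difference was 2.01 with calcium and 1.60 without. The other 116 values of counts and medians under the alternatives kept counts within 1.5 times and medians within the scanner's error. Of the values of single members 244 stayed within the scanner's error and 26 moved further, all 26 under normexp correction, quantile scaling or keratinocyte scaling. The value table divides by 2638.2 to 3300.8 intensity units, nearly the 75th percentiles of the main scaling. Its values could hardly move and add to the counts of 116 and 244 without being a check. Among those 26, Gstm5 took the other sign for genotype with keratinocyte scaling (0.24 with and without calcium), and Gsta2 for the difference of responses after normexp correction (-0.39). Gsta2 was the member most open to the background correction, at -1.42 and -1.03 for calcium in -/- and +/+ cells and 0.73 and 1.12 for genotype with and without calcium. No paired analysis was possible because each group has 1 array, and no array could be left out. Signal over background limits Gsta2 and Gsta4, and a single pool per genotype limits every value. Over all genes the counts past 2-fold also moved by over 1.5 times: after normexp correction, 319 higher and 26 lower with calcium in -/- cells, against 640 and 129, and 328 and 62 in +/+ cells, against 522 and 214. Likewise 374 genes were lower in -/- cells with calcium, against 658, and the difference of responses passed 2-fold in 115 and 67, against 367 and 121.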
